A study of Mus musculus with 16 samples.

Results

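The 10 genes described here encode mouse MHC class I heavy chains, their light chain and part of the machinery that loads them with peptide. They were chosen by symbol out of 24421 genes in the deposited tables, and each symbol was found there. They are the classical heavy chains H2-K1 and H2-D1, the non-classical heavy chains H2-T22, H2-T23, H2-T24, H2-M3 and H2-Q4, the light chain B2m, the peptide transporter subunit Tap1 and tapasin (Tapbp). No measured value entered the choice rule, though earlier results of these data were known when the members were chosen. The RNA came from the somatosensory cortex of mice labelled male and homozygous, aged 2 to 3 months, of the C57BL/6 line (WT) or the AcPb-/- line (AcPbKO). AcPb is the neuron-specific isoform of the IL1 receptor accessory protein, a product of the gene Il1rap. Both lines had been bred in-house for 5 to 7 generations. Sleep disruption (SD) was applied by gentle handling for 8 h, from zeitgeber time (ZT) 20 to ZT4, and control mice (CTL) were left undisturbed. All mice were collected at ZT4. The tables hold 3 libraries each of CTL-WT, SD-WT, CTL-AcPbKO and SD-AcPbKO, and 4 further samples of the labels were not analysed here.

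MHC class I molecules carry short peptides from inside the cell to its surface. A heavy chain pairs with B2m in the endoplasmic reticulum, TAP pumps peptides in from the cytosol, and tapasin bridges TAP to the empty heavy chain while calreticulin and the disulfide isomerase ERp57 hold the complex together. In brain, class I transcripts are found in neurons as well as in microglia and endothelium, and class I molecules are known there for roles at synapses besides presentation to CD8 T cells.

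Reads on genes numbered 26504840 to 41615582 per control library and 58770286 to 71857505 per SD library, so the lowest SD library was 1.41 times as deep as the deepest control. Depth and treatment cannot be told apart by group, and thinning every library to the same total is among the alternatives given below. The control libraries CTL-WT replicates 02 and 03 and CTL-AcPbKO replicates 04 and 05 held 25352 to 39358 reads of Xist, the RNA of the inactive X chromosome, and at most 2 reads of 4 Y-linked genes, which goes against their label as male. The other 8 libraries held 5 to 13 Xist reads and 5105 to 10593 Y-linked reads. Each genotype therefore kept 1 control library of the labelled kind, and the members' results are given with and without the 4 Xist libraries. Markers of cortical glutamatergic neurons were read in every library (8 of 8 tested, summed level 77147 to 104079 normalized counts), as the tissue label says. Choroid plexus markers summed to 304 to 587 normalized counts in 11 libraries and to 17959 in SD-AcPbKO replicate 04. Il1rap, counted over the whole gene and so no check of the deleted isoform, stood at 1497 ± 21.9 normalized counts (SD of 3 libraries) in CTL-WT and 1583 ± 66.1 in CTL-AcPbKO (log2 difference 0.08, limma adjusted p = 0.718).

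Of the 10 genes, 9 lie on chromosome 17 of GRCm38 and B2m on chromosome 2. By the GENCODE M21 annotation H2-K1 spans chr17:33996017-34000347 on the minus strand, H2-D1 chr17:35262730-35267499 on the plus strand, and H2-Q4 chr17:35379617-35385290 on the plus strand. H2-T24 at chr17:36005695-36020560, H2-T23 at chr17:36029773-36032855 and H2-T22 at chr17:36037128-36042747 follow each other on the minus strand. H2-M3 lies at chr17:37270220-37274484 on the plus strand. Tapbp (chr17:33915899-33929292) and Tap1 (chr17:34187553-34197225) lie on the plus strand of the same chromosome, and B2m at chr2:122147686-122153083 on the plus strand. Class I heavy chains are near copies of each other, which matters for counting. Of all 100-base stretches of exon, 31.5% in H2-T22 were shared with other annotated genes, mainly H2-T10 and an antisense gene, and 14.1% in H2-Q4. Among the other heavy chains the shared part was 0.957% in H2-K1, 3.59% in H2-D1, 3.15% in H2-T23 and 0% in H2-T24 and H2-M3. Tapbp shared 14.8%, mainly with the antisense gene Gm19412, Tap1 shared 1.93% with Psmb9, and B2m 0%. The strand setting used in counting is not given in the sources used here, so H2-T22, H2-Q4 and Tapbp are the less certain values.

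Class I promoters are textbook examples of shared control, with a kappa B site called enhancer A, an interferon-stimulated response element (ISRE), and an X2 and Y box read by CREB/ATF and NF-Y factors. The RefSeq promoter table (GRCm38.p6) matched 9 of the 10 genes and held none for H2-T24. Windows of 300 bases, 250 before the start and 50 after, were searched on both strands. The enhancer A core was in 0.107% of all 32851 promoters and in 2 members, H2-K1 and H2-D1. The ISRE core was in 1.72% of promoters and in 4 members, H2-K1, H2-D1, H2-T22 and H2-Q4. The X2 core TGACG was in 20.8% of promoters and in 7 members, all with a window but H2-T23 and Tapbp. The Y box CCAAT was in 37.4% of promoters and in all 9 members. No searched motif overlapped another by its letters in the stretches printed here. A match is a run of letters and not evidence of binding. The 250 bases before the start are printed for 4 genes to show how the motif content differs between the classical chains H2-K1 and H2-D1, whose windows hold all 4 motifs, and H2-T23 and B2m, whose windows hold fewer. They read 5′ to 3′ on the gene's strand, with motif matches of either strand in capitals (in H2-K1 and H2-D1 the capitals are, in turn, the enhancer A core, the ISRE, the X2 core and the Y box, and ATTGG is the Y box on the other strand).
H2-K1, chr17:34000348-34000597, minus strand: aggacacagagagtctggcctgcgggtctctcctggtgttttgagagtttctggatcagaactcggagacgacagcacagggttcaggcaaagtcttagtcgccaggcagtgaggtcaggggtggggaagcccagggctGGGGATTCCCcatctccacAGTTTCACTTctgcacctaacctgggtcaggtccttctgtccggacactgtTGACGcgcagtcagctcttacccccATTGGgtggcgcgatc
H2-D1, chr17:35262844-35263093, plus strand: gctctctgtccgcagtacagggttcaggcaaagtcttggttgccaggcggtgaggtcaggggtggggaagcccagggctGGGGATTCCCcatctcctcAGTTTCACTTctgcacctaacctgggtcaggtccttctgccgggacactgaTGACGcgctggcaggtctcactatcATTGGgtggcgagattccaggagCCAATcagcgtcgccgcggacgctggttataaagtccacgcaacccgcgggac
H2-T23, chr17:36032702-36032951, minus strand: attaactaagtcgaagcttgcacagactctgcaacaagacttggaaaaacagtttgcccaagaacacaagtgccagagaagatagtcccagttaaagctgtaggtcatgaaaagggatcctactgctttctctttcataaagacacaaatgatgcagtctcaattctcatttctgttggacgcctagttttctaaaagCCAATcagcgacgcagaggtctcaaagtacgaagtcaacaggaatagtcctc
B2m, chr2:122147437-122147686, plus strand: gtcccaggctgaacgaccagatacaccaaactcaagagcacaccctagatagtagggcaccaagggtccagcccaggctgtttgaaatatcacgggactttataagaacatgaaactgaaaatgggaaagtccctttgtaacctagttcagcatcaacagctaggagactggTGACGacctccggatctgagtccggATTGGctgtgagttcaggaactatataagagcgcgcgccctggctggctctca
H2-K1 and H2-D1 carry the 4 motifs in the same order. In H2-K1 the enhancer A core began 111 bases before the start, the ISRE 92 and the X2 core 41, and in H2-D1 they began at 171, 152 and 101. H2-T23 held only a Y box, 52 bases before its start, and B2m an X2 core at 78 and a Y box at 53. RefSeq lists a further start of H2-K1 nearby, and GENCODE places the gene starts of H2-D1 and H2-T23 upstream of the RefSeq starts used here, so the printed stretches of these 2 genes lie partly or wholly inside the GENCODE gene.

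Per length of exon, B2m was by far the most abundant member. Levels here are reads per kilobase of exon, scaled to the library's reads on genes (RPKM), the only scale on which genes are compared with each other. In CTL-WT, B2m stood at 101 ± 8.0 RPKM (SD, n = 3), then H2-K1 at 9.07 ± 0.476, Tapbp at 8.48 ± 0.374, H2-T24 at 6.04 ± 0.0587, H2-T23 at 4.86 ± 0.266 and H2-D1 at 4.72 ± 0.166. H2-M3 (2.10 ± 0.0882), H2-Q4 (2.02 ± 0.145) and Tap1 (0.771 ± 0.122) followed. H2-T22 was near the limit of counting, with 1 to 11 reads in each of the 12 libraries. The ranges of H2-K1 and Tapbp, of H2-T23 and H2-D1, and of H2-M3 and H2-Q4 overlapped, and all other neighbours in this order were apart. In SD-WT the order of the heavy chains differed. H2-T24 came directly after B2m (147 ± 21.0 RPKM) at 10.5 ± 1.29, followed by H2-T23 at 7.2 ± 0.598 and H2-K1 at 6.85 ± 0.836, with the last pair overlapping. In CTL-AcPbKO the order began with B2m (93.1), H2-K1 (9.18), Tapbp (9.14), H2-T24 (5.48) and H2-T23 (5.36), and in SD-AcPbKO with B2m (131), H2-T24 (10.6), Tapbp (6.66), H2-T23 (6.07) and H2-K1 (6.01). In both SD groups H2-T24 was apart from every other heavy chain, above it.

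The question put by the WT groups is what 8 h of SD does to cortical transcripts. Of the 10 members, 7 passed the test in SD-WT over CTL-WT, 3 higher (H2-T24, H2-T23, B2m) and 4 lower (Tap1, H2-M3, H2-K1, Tapbp). The test was limma on log2(normalized count + 1), with p adjusted over all 20417 genes tested, and 25.4% of all genes passed it (13.2% higher, 12.2% lower). With a mean of at least 10 required it was 7 members and 33.9% of genes. The share of members past the threshold is above that of all genes, on 10 genes only. The members were chosen with earlier results of these data known, so this share is a description. The same 7 members were those whose 3 SD and 3 control libraries did not overlap, against 40.2% of all genes. The median change of the 10 members was -0.16 on the log2 scale and that of all genes tested -0.0039. Replicates are single mice as far as the labels tell, so p-values measure the spread between 3 libraries a group. In whole tissue, fewer cells of a type and less RNA per cell cannot be told apart.

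**Figure D1:**
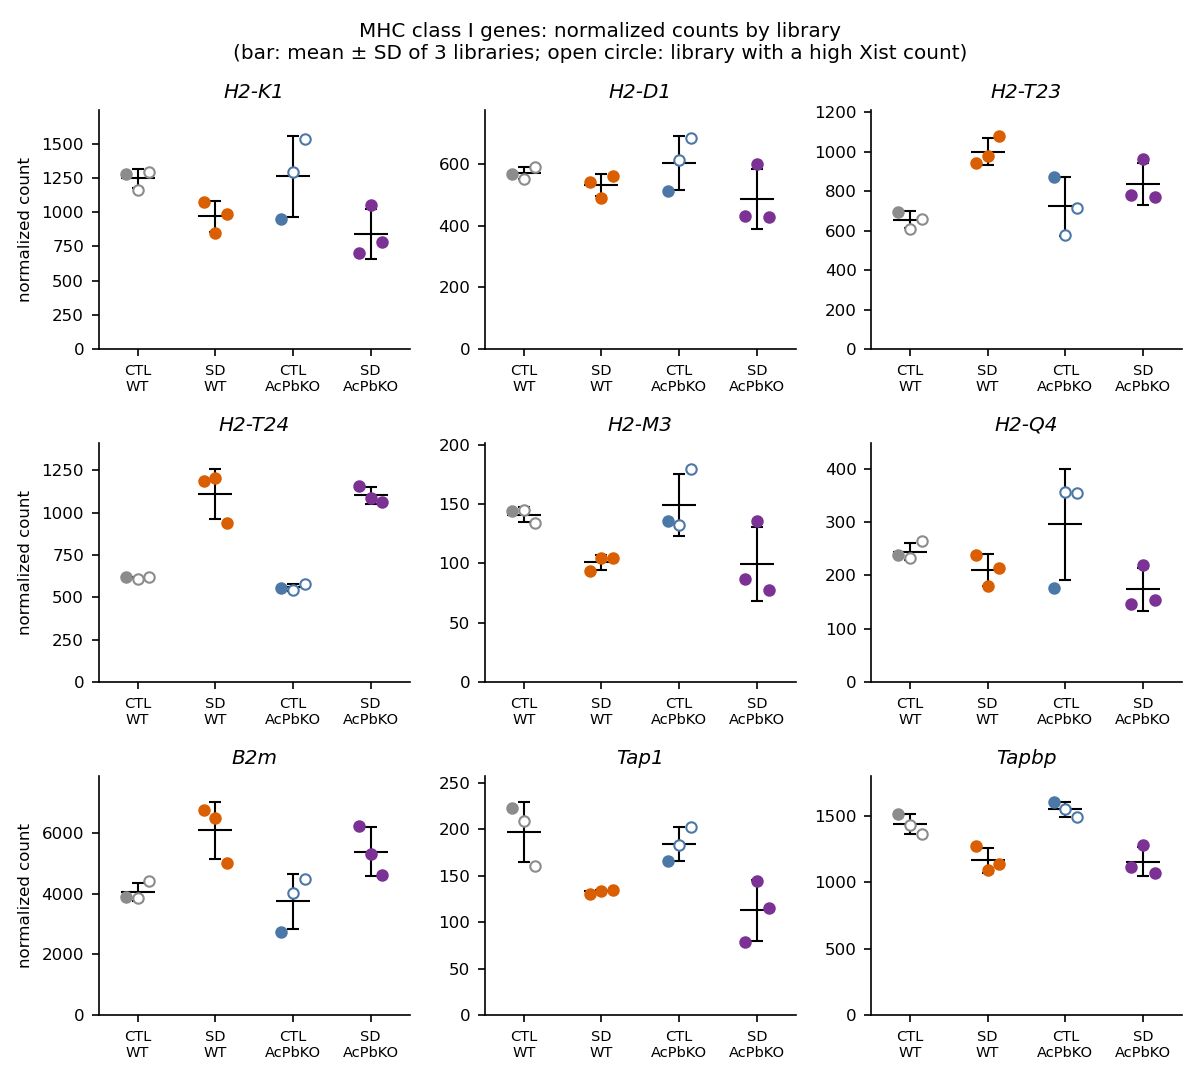
Normalized counts of 9 members (vertical axes, each from 0) in the 12 libraries, by group, with mean ± SD of 3 libraries; open circles mark the control libraries with a high Xist count. All 6 SD libraries lie above all 6 controls for H2-T24 and B2m and below them for Tap1 and Tapbp, and for the other members the libraries of the AcPbKO groups overlap or spread widely. H2-T22, with at most 11 reads a library, is left out.

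Of the classical heavy chains, which present peptide to CD8 T cells, H2-K1 fell in WT mice and H2-D1 did not pass the test. H2-K1 read 1279.8, 1162 and 1294 normalized counts in the 3 CTL-WT libraries and 1074, 849 and 986 in SD-WT. In AcPbKO mice H2-K1 read 949.7, 1296 and 1537 in controls and 698, 1049 and 780.4 after SD. The WT groups were apart, and the AcPbKO groups overlapped, since control replicate 03 lay below SD replicate 03. The log2 change in WT was -0.37 (SE 0.09, adjusted p = 0.0162), and the call was lost without CTL-WT replicate 03 (adjusted p = 0.0511) or SD-WT replicate 02 (0.0669). In AcPbKO it was -0.57 (SE 0.19, adjusted p = 0.0554), and it passed without CTL-AcPbKO replicate 03 (-0.76, adjusted p = 0.0113), without SD-AcPbKO replicate 03 (-0.74, 0.0252), and in edgeR (0.0406) and DESeq2 (0.00645).

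H2-D1 read 568, 549 and 589 normalized counts in CTL-WT and 541, 490.5 and 559.8 in SD-WT, with SD replicate 04 above control replicate 02. In AcPbKO it read 511, 613 and 685 in controls and 432, 598 and 426 after SD. The AcPbKO groups overlapped through SD replicate 03. The log2 change was -0.10 in WT (95% interval -0.29 to 0.09, adjusted p = 0.423) and -0.32 in AcPbKO (-0.67 to 0.04, adjusted p = 0.169). Without SD-AcPbKO replicate 03 the latter was -0.48 (adjusted p = 0.0349).

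Among the non-classical chains, H2-T24 rose in both genotypes. It is a gene of the T region with little known of its ligands. H2-T24 read 618, 611 and 618 normalized counts in CTL-WT and 1186, 1206 and 938 in SD-WT. In AcPbKO it read 553, 544 and 580.1 in controls and 1161, 1088 and 1062 after SD. The controls were within a narrow band in both genotypes, also between Xist and other libraries, and each SD library was above each control. The rise was 0.84 on the log2 scale in WT (SE 0.10, 1.79-fold, adjusted p = 0.000599) and 0.98 in AcPbKO (SE 0.07, 1.98-fold, adjusted p = 0.000444). Leaving out each library in turn kept the call in 6 of 6 fits in each genotype.

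H2-T23 encodes Qa-1, which shows signal peptides of other class I chains to the CD94/NKG2A receptor of NK cells. It read 697, 611 and 659 normalized counts in CTL-WT and 945, 980.1 and 1081 in SD-WT, which were apart. In AcPbKO it read 875, 579 and 716 in controls and 781, 963 and 773 after SD. There the groups overlapped, and the highest control was replicate 03, the control library without Xist. The log2 change was 0.61 in WT (SE 0.08, 1.53-fold, adjusted p = 0.00105), past the threshold in 6 of 6 fits that left out a library. In AcPbKO it was 0.23 (95% interval -0.11 to 0.57, adjusted p = 0.306), and -0.07 without the Xist libraries, where replicate 03 is the only control. The neighbouring gene H2-T22, a ligand of some gamma delta T cells, had so few reads that no direction can be given (0.74, adjusted p = 0.233 in WT, -0.33, adjusted p = 0.650 in AcPbKO).

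H2-M3, which binds N-formylated peptides of bacteria and mitochondria, read 144, 145 and 134 normalized counts in CTL-WT and 93.7, 105 and 104 in SD-WT. It read 136, 132 and 179.7 in CTL-AcPbKO and 86.7, 135 and 77.3 in SD-AcPbKO. SD libraries of WT lay below all controls, and in AcPbKO SD replicate 03 reached into the control range. The log2 change was -0.48 in WT (SE 0.14, adjusted p = 0.0275) and -0.60 in AcPbKO (SE 0.23, adjusted p = 0.0895). The WT call was lost without any of CTL-WT replicates 01 (adjusted p = 0.0583) and 02 (0.0932) and SD-WT replicates 01 (0.104) and 02 (0.0671), and with all libraries thinned to the same depth (0.0567). Without SD-AcPbKO replicate 03 the AcPbKO change was -0.84 (adjusted p = 0.0198).

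H2-Q4, a chain of the Q region, read 238, 232 and 264 normalized counts in CTL-WT and 238, 179 and 214 in SD-WT, and 176, 357 and 355 in CTL-AcPbKO and 147, 219.9 and 155 in SD-AcPbKO. The groups overlapped in both genotypes. In AcPbKO the 2 Xist controls stood at 357 and 355 and the other control at 176. Its log2 change was -0.23 in WT (adjusted p = 0.245) and -0.71 in AcPbKO (SE 0.28, adjusted p = 0.0931), and without CTL-AcPbKO replicate 03 the latter was -1.05 (adjusted p = 0.00537).

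B2m, the light chain of all class I molecules and a partner also of the neonatal Fc receptor, rose in both genotypes while H2-K1 fell in WT. It read 3906, 3858 and 4408 normalized counts in CTL-WT and 6769, 6491 and 5021 in SD-WT. In AcPbKO it read 2742, 4015 and 4478 in controls and 6226, 5304 and 4630.5 after SD. SD libraries were above controls in both genotypes, with the smallest gap between 4478 and 4630.5. B2m changed by 0.58 on the log2 scale in WT (SE 0.11, 1.49-fold, adjusted p = 0.00392), past the threshold in 6 of 6 fits that left out a library. In AcPbKO it was 0.55 (SE 0.18, 1.46-fold, adjusted p = 0.0480). That call was lost without CTL-AcPbKO replicates 03 (adjusted p = 0.0663) or 04 (0.0830), without SD-AcPbKO replicates 02 (0.188), 03 (0.0989) or 04 (0.0546), and with a pseudocount of 10 (0.0631).

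Tap1 and Tapbp, the transporter subunit and the bridge to it, fell in both genotypes. Tap1 read 223, 208 and 161 normalized counts in CTL-WT and 131, 134 and 135 in SD-WT, and 166, 184 and 202 in CTL-AcPbKO and 78.2, 144 and 116 in SD-AcPbKO. Its log2 change was -0.55 in WT (SE 0.15, adjusted p = 0.0207) and -0.74 in AcPbKO (SE 0.22, adjusted p = 0.0375). No SD library reached a control, and yet both calls rested on single libraries. The WT call was lost without CTL-WT replicates 01 (adjusted p = 0.0627) or 02 (0.0851) or SD-WT replicates 01 (0.0715) or 02 (0.0651). The AcPbKO call was lost without CTL-AcPbKO replicates 04 (0.0999) or 05 (0.0990) or SD-AcPbKO replicates 02 (0.0950) or 04 (0.0795).

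Tapbp read 1516, 1434 and 1363 normalized counts in CTL-WT and 1273, 1090.5 and 1135 in SD-WT, and 1603, 1556 and 1488 in CTL-AcPbKO and 1116, 1278 and 1073 in SD-AcPbKO. Controls were above SD libraries throughout, and the highest control in each genotype was the library without a high Xist count. The log2 change was -0.30 in WT (SE 0.08, adjusted p = 0.0169) and -0.42 in AcPbKO (SE 0.08, adjusted p = 0.00557). In AcPbKO the call held in 6 of 6 fits that left out a library. In WT it was lost without CTL-WT replicates 01 (0.0535) or 02 (0.0646) or SD-WT replicate 02 (0.0788).

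In SD-AcPbKO over CTL-AcPbKO as a whole, 4 of the 10 members passed, 2 higher (H2-T24, B2m) and 2 lower (Tap1, Tapbp), where 27.4% of the 20574 genes tested passed (14.1% higher, 13.3% lower). The same 4 members had groups that did not overlap, against 42.4% of all genes. The median change of the members was -0.38 and that of all genes tested 0.01. SD replicate 03 read highest of the 3 SD-AcPbKO libraries for H2-K1, H2-D1, H2-T23, H2-M3, H2-Q4, Tap1 and Tapbp, and it had the lowest sum of 10 microglia markers of all 12 libraries (12295 normalized counts). Without SD-AcPbKO replicate 04, the library with choroid plexus markers, 2 members passed. Over the fits that left out each library in turn, 2 to 6 members and 16.6% to 26.6% of all genes passed. With every library kept, 27.4% of all genes did. Whether the choroid plexus content of replicate 04 had a part in the members' calls was not tested. Plotted side by side, the WT and AcPbKO estimates of each member but H2-T22 have the same sign.

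**Figure D2:**
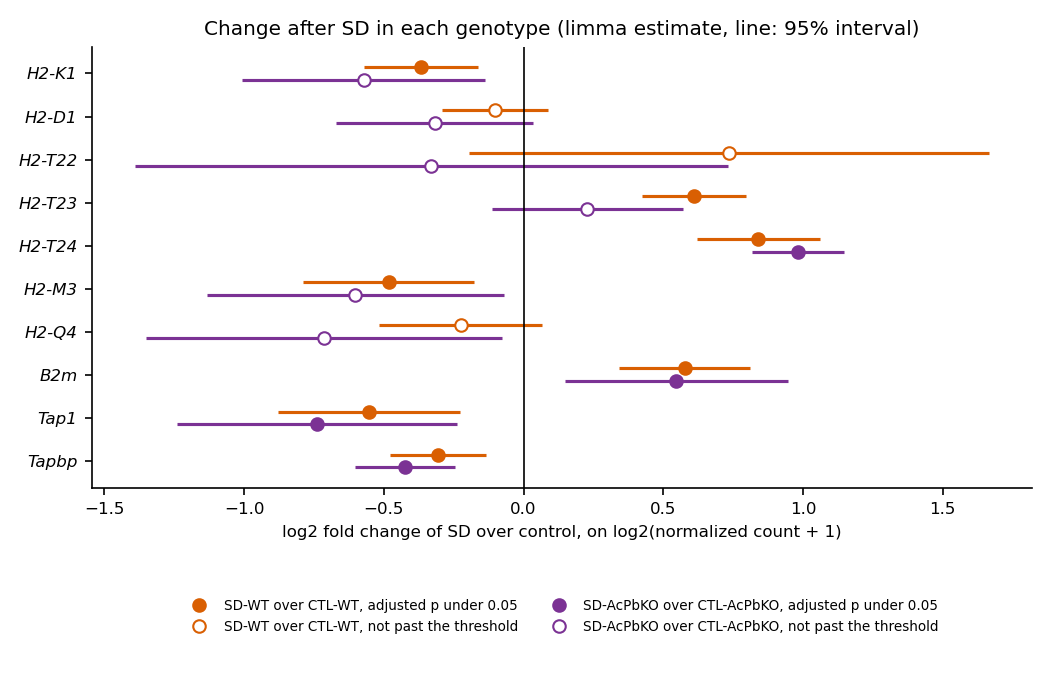
Log2 fold change of SD over control (horizontal axis, limma on log2(normalized count + 1)) of the 10 members in WT (orange) and AcPbKO (purple), with 95% intervals as lines; filled points passed at an adjusted p under 0.05. H2-T24 has estimates of 0.84 and 0.98, the 2 intervals of each member overlap, and those of H2-T22 are the widest.

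Whether SD acted differently in the 2 genotypes was tested directly, as the AcPbKO change minus the WT change in a fit of all 12 libraries normalized together. None of the 10 members passed (limma adjusted p 0.986 to 0.999), nor did any of 20978 genes, of which 839 and 0 members had an unadjusted p under 0.05, and edgeR and DESeq2 called 0 members. The intervals say how large a difference could have been missed. For H2-T24 the difference was 0.14 (95% interval -0.13 to 0.41), for B2m -0.03 (-0.54 to 0.47), for Tapbp -0.12 (-0.36 to 0.12) and for Tap1 -0.19 (-0.79 to 0.41). H2-T23 had -0.38 (-0.79 to 0.02), H2-K1 -0.21 (-0.73 to 0.31), H2-D1 -0.22 (-0.62 to 0.19), H2-M3 -0.12 (-0.72 to 0.48) and H2-Q4 -0.49 (-1.23 to 0.25). For H2-T22 it was -1.07 (-2.40 to 0.27). For H2-T24 the interval is narrower than the SD change itself (0.84 in WT), and for H2-T23 it is not.

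Between genotypes at the same treatment no member passed. In CTL-AcPbKO over CTL-WT, limma called 0 members and 0.0197% of 20273 genes, and 0 members and 1730 genes had an unadjusted p under 0.05. H2-T24 was the only member with groups that did not overlap (14.3% of all genes), 0.14 lower on the log2 scale in AcPbKO (-0.14, SE 0.07, adjusted p = 0.640). In SD-AcPbKO over SD-WT, limma called 0 members and 0.0145% of 20621 genes, and 1 member and 1265 genes had an unadjusted p under 0.05. That member was H2-T23 (-0.26, adjusted p = 0.754). H2-T22 was the only member without overlap there (11.3% of all genes), on at most 11 reads, and H2-T24 differed by -0.00056 between the SD groups. edgeR and DESeq2 also called 0 members in both comparisons.

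Averaged over genotypes, with 6 SD and 6 control libraries, 8 members passed, where 41.5% of 20978 genes did (21.2% higher, 20.3% lower). With a mean of at least 10 required it was 8 members and 54.3% of genes. The 3 that rose were H2-T24 (0.91, adjusted p = 1.05e-06), B2m (0.56, 0.00183) and H2-T23 (0.42, 0.00277). The 5 that fell were Tapbp (-0.36, 0.000192), Tap1 (-0.65, 0.00226), H2-K1 (-0.47, 0.00644), H2-M3 (-0.54, 0.00659) and H2-Q4 (-0.47, 0.0417). H2-D1 had -0.21 (0.0899) and H2-T22 0.20 (0.654). Of these, 4 members had 6 SD libraries wholly above (H2-T24, B2m) or below (Tap1, Tapbp) the 6 controls, against 22.2% of all genes. All calls but that of H2-Q4 held in 12 of 12 fits that left out a library, and H2-Q4 passed in 3 of them. H2-D1 passed without CTL-AcPbKO replicate 03 (-0.27, adjusted p = 0.0299) or without SD-AcPbKO replicate 03 (-0.29, 0.00860).

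With a term for the 4 Xist libraries, 4 members passed in the averaged comparison, where 30.8% of genes did. They were H2-T24 (0.91, adjusted p = 5.45e-05), B2m (0.80, 0.00125), Tapbp (-0.43, 0.00131) and Tap1 (-0.67, 0.0247). The calls of H2-K1 (-0.30, 0.178), H2-T23 (0.23, 0.144), H2-M3 (-0.50, 0.0787) and H2-Q4 (-0.11, 0.719) were lost. Leaving the 4 libraries out, which leaves 8 libraries and 1 control of each genotype, gives the same estimates with fewer degrees of freedom. Then 3 members passed, where 24.7% of genes did, namely H2-T24 (adjusted p = 0.00713), B2m (0.0192) and Tapbp (0.0241), and Tap1 had 0.0801. The estimates of H2-T24, Tap1, Tapbp and H2-M3 moved little, that of B2m was larger, and those of H2-T23, H2-K1 and H2-Q4 were smaller. With this term, 4 members passed in WT (19.3% of genes), H2-T24 (0.85, adjusted p = 0.000863), B2m (0.81, 0.00748), Tapbp (-0.37, 0.0174) and H2-T23 (0.42, 0.0474). In AcPbKO it was also 4 (24.7% of genes), H2-T24 (0.98, 0.000230), Tapbp (-0.49, 0.00279), B2m (0.78, 0.00626) and Tap1 (-0.76, 0.0405). Without the Xist libraries 0 members passed in WT (3.27% of genes), where H2-T24 had 0.83 (adjusted p = 0.0505), and 2 in AcPbKO (10% of genes), H2-T24 (0.99, 0.0270) and B2m (0.96, 0.0479).

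**Figure D3:**
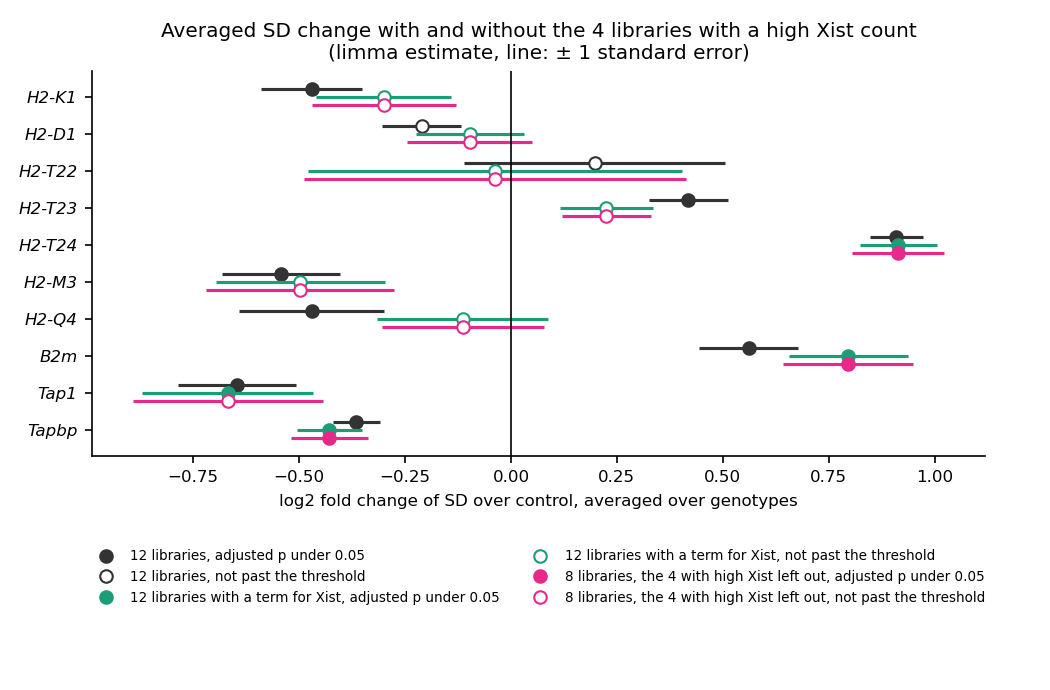
Log2 change of SD over control averaged over genotypes (horizontal axis) for the 10 members, from all 12 libraries (black), with a term for the 4 libraries with a high Xist count (green) and without these 4 (pink); lines are ± 1 standard error and filled points passed at an adjusted p under 0.05. H2-T24 stays at 0.91, B2m goes from 0.56 to 0.80, and H2-T23 goes from 0.42 to 0.23.

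The members moved apart within each library, which shows in their proportions and does not rest on how libraries were scaled to each other. Heavy-chain reads per kilobase were summed over the 7 chains of a library and each chain given as a share. H2-T24 made up 17.0% to 21.7% of this sum in the 6 control libraries and 28.4% to 40.1% in the 6 SD libraries. H2-K1 went the other way, from 26.0% to 33.4% in controls to 17.9% to 22.8% after SD, so neither range overlapped. In group means, the H2-T24 share was 21.0% ± 0.636 in CTL-WT, 32.9% ± 4.13 in SD-WT, 18.6% ± 1.73 in CTL-AcPbKO and 36.3% ± 4.61 in SD-AcPbKO. H2-D1 fell from 16.4% to 13.3% in WT and from 16.8% to 13.3% in AcPbKO as a share of heavy-chain reads, without a test. The shares of a library add up to the whole, so a larger H2-T24 share lowers the others whatever their own levels. By normalized counts H2-D1 did not pass (limma log2 change -0.10, adjusted p = 0.423 in WT and -0.32, 0.169 in AcPbKO). H2-T23 had 16.9% ± 0.635 and 22.5% ± 2.18 in WT, and in AcPbKO 18.3% ± 5.29 and 20.6% ± 0.214, the wide control value coming from replicate 03.

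**Figure D4:**
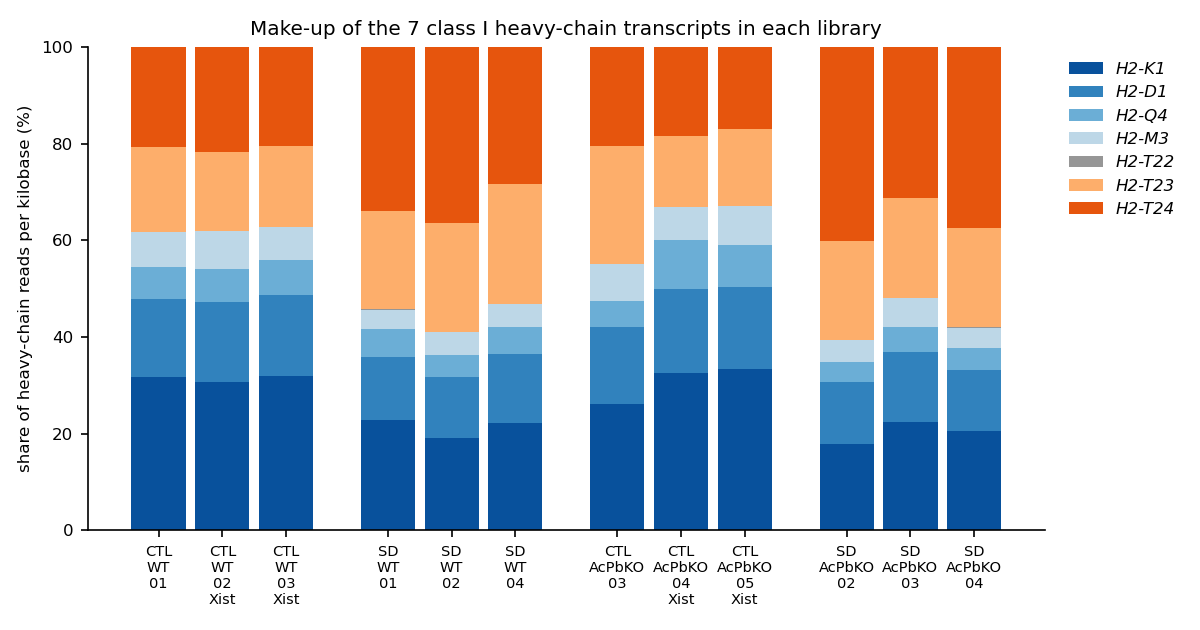
Share of each of 7 heavy chains in the summed heavy-chain reads per kilobase (vertical axis, percent) in each of the 12 libraries; Xist marks the 4 control libraries with a high Xist count. The H2-T24 part (top) is 17.0% to 21.7% in controls and 28.4% to 40.1% after SD, and the H2-K1 part (bottom) is 26.0% to 33.4% and 17.9% to 22.8%.

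As ratios within a library, H2-T24 to H2-K1 reads were 0.483, 0.526 and 0.478 in CTL-WT and 1.10, 1.42 and 0.951 in SD-WT. In AcPbKO they were 0.582, 0.420 and 0.378 in controls and 1.66, 1.04 and 1.36 after SD. The log2 ratio thus lay at -1.08 on average in the 6 controls (-1.41 to -0.78) and at 0.30 in the 6 SD libraries (-0.07 to 0.73), a difference of 1.38, and of 1.22 without the Xist libraries. B2m reads to the sum of H2-K1 and H2-D1 reads were 2.11, 2.25 and 2.34 in CTL-WT, 4.19, 4.85 and 3.25 in SD-WT, 1.88, 2.10 and 2.02 in CTL-AcPbKO and 5.51, 3.22 and 3.84 in SD-AcPbKO. Here the ranges of the 6 controls and 6 SD libraries were apart, with a log2 difference of 0.94, and 1.03 without the Xist libraries. The H2-T23 to H2-K1 ratio differed by 0.89, and by 0.53 without them. These ratios are descriptions, chosen after the members' changes were known.

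Cell type markers moved in part with these genes. The summed level of 10 microglia markers was 16736 to 17869 normalized counts in CTL-WT, 15579 to 16705 in SD-WT, 16705 to 17050 in CTL-AcPbKO and 12295 to 14839 in SD-AcPbKO, and 2 of 10 were lower in WT, 3 in AcPbKO and 0 higher in either. Among all genes tested, 12.2% were lower and 13.2% higher in WT, and 13.3% lower and 14.1% higher in AcPbKO. The members that fell (H2-K1, H2-M3, Tap1, Tapbp) moved in the same direction as the microglia markers by group, but not in each library. SD-AcPbKO replicate 03 had the lowest microglia sum and read highest of its group for these members. The sum of 9 endothelium markers was 18192 to 19856 in CTL-WT, 19755 to 24247 in SD-WT, 17793 to 20784 in CTL-AcPbKO and 18973 to 21738 in SD-AcPbKO. Of the 9, 4 were higher and 1 lower in WT, and 3 higher and 1 lower in AcPbKO. Most of these calls had the direction of H2-T24, H2-T23 and B2m, but the summed ranges of SD and control overlapped in both genotypes. Border macrophage markers (7) summed to 678 to 1047 in controls and 894 to 1219 after SD over both genotypes. Oligodendrocyte markers summed to 109741 to 140476 in CTL-WT, 88400 to 121095 in SD-WT, 55531 to 127531 in CTL-AcPbKO and 70815 to 106008 in SD-AcPbKO. Of these 7, 5 were lower in WT, 1 in AcPbKO and 0 higher in either. In WT this is the direction of the members that fell, and in AcPbKO the SD range lay within the control range. Also lower in WT were 2 of 7 astrocyte, 2 of 6 meningeal fibroblast and 2 of 8 striatal neuron markers, with 0 higher. In AcPbKO 1, 1 and 0 of them were lower. Higher in WT were 3 of 6 interneuron and 2 of 7 border macrophage markers, with 0 lower. In AcPbKO 2 and 1 of them were higher, with 0 lower. Cortical glutamatergic neuron markers (8) summed to 88858 to 97112 in CTL-WT and 77147 to 89258 in SD-WT. In CTL-AcPbKO they summed to 98489 to 104079 and in SD-AcPbKO to 87986 to 92424. Of these 8, 2 were higher and 2 lower in WT, and 2 higher and 1 lower in AcPbKO. T and NK cell markers, 7 of 8 in the tables, summed to 49.4 to 195 normalized counts, with Cd3d at 0 in all CTL-WT and Cd3g at 0 in all CTL-AcPbKO libraries. Neutrophil markers summed to 21.1 to 801, the highest in SD-AcPbKO replicate 04, with 24.0 in replicate 02 and 132 in replicate 03 of that group. The globin genes among the red blood cell markers, 4 of 5, were at 0 reads in all libraries, while the remaining marker read 143 to 427 normalized counts. Why the globin genes had no reads was not tested, and their 0 reads are not taken as absence of blood. The part of these cell types in the members' changes was not tested.

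Other class I heavy chains and class I-like genes numbered 25, of which 16 had reads in the WT comparison. H2-Q6, H2-Q7, H2-Q8 and H2-Q9 were at 0 reads in all libraries, and why was not tested. In WT 0 of 16 rose and 2 fell, and in AcPbKO 0 of 14 rose and 1 fell. Of all genes tested, 13.2% rose and 12.2% fell in WT, and 14.1% rose and 13.3% fell in AcPbKO. Fcgrt, the neonatal Fc receptor that also pairs with B2m, fell in both, from 914 to 605 normalized counts in WT (log2 change -0.60, adjusted p = 0.00206) and from 916 to 532 in AcPbKO (-0.79, 0.00327). Its direction was opposite to that of B2m, and its call held with the Xist term (-0.50, 0.0293 and -0.69, 0.00469). The other WT call was H2-Q2, which had a mean under 50 normalized counts. Averaged over genotypes Mr1, which presents vitamin metabolites, rose (0.27, adjusted p = 0.0225) and Hfe, the hemochromatosis protein, fell (-0.26, 0.0308), but with the Xist term these calls of Mr1 (adjusted p = 0.0983) and Hfe (0.0688) were lost.

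Among 16 other genes of peptide loading and trimming, 2 rose and 2 fell in WT and 3 rose and 5 fell in AcPbKO (medians -0.12 and -0.16). The WT count is near the share of all genes, of which 25.4% passed in WT and 27.4% in AcPbKO. Of the chaperones of the loading complex, calreticulin and ERp57 rose. Calr, calreticulin, had log2 changes of 0.92 (adjusted p = 0.000293) and 1.17 (0.000444), and Pdia3, ERp57, 0.59 (0.000898) and 0.84 (0.000444). Both also serve the folding of glycoproteins in general. Tapbpl, the tapasin-related peptide editor, fell with Tapbp (-0.31, adjusted p = 0.0357 and -0.52, 0.00468), as did Sec61b, a subunit of the translocon (-0.62, 0.0303 and -0.65, 0.00827). In AcPbKO the immunoproteasome subunit Psmb10 (-0.36, 0.00695) and the proteasome activator Psme1 (-0.28, 0.0135) fell as well. With the Xist term Calr and Pdia3 kept their calls, and those of Tapbpl in WT (-0.22, adjusted p = 0.142) and of Sec61b in WT (-0.51, 0.127) and AcPbKO (-0.55, 0.0943) were lost. Averaged over genotypes 4 rose and 8 fell, where 21.2% of all genes rose and 20.3% fell. Those that fell included Tap2, the partner of Tap1 (-0.30, adjusted p = 0.0109), and the immunoproteasome subunit Psmb8 (-0.49, 0.0118). With the Xist term 4 of these 12 calls were lost, Tap2 (adjusted p = 0.168) and Psmb8 (0.0590) among them.

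Of 19 regulators of class I transcription, 5 rose and 1 fell in WT and 6 rose and 2 fell in AcPbKO (medians 0.03 and 0.11). All genes had 13.2% higher and 12.2% lower in WT, and 14.1% and 13.3% in AcPbKO. Irf2, a factor of the ISRE, changed by 0.75 (adjusted p = 0.000700) and 0.69 (0.00107). Creb1, which binds the X2 box, changed by 0.25 (0.00876) and 0.39 (0.00751). Nfyc, a subunit of the Y box factor, changed by 0.40 (0.00892) and 0.28 (0.0244), and Rfxank, of the RFX complex, by 0.30 (0.0239) and 0.34 (0.0217). Rfxank shares 23.8% of its stretches with another gene, and Nfyc 12.1%. Irf9 rose in WT (0.29, 0.0264), Ezh2 (0.48, 0.0238) and Stat2 (0.30, 0.0172) in AcPbKO, and Rxrb, a retinoid X receptor, fell in both genotypes (-0.23, 0.0156 and -0.27, 0.0163). The other gene that fell in AcPbKO was Nfyb (-0.21, 0.0455). With the Xist term 1 of 6 calls in WT was lost, that of Rfxank (adjusted p = 0.0509), and 3 of 8 in AcPbKO, those of Nfyc (0.0615), Stat2 (0.140) and Nfyb (0.172). Nlrc5, the class I transactivator, did not pass (-0.41, adjusted p = 0.163 and -0.25, 0.463).

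Of 14 receptors and coreceptors of class I and their signaling partners, 13 were in the tables, 1 rose in WT and 0 in AcPbKO. Of all genes, 13.2% rose in WT and 14.1% in AcPbKO. The receptor that rose was Insr, the insulin receptor, which is known to associate with class I (0.19, adjusted p = 0.0317, and 0.0348 with the Xist term). Pirb, a neuronal and myeloid class I receptor, stood at 15.2, 22.1, 16.3 and 27.1 normalized counts in CTL-WT, SD-WT, CTL-AcPbKO and SD-AcPbKO (log2 change 0.55, adjusted p = 0.206 and 0.67, 0.204). Klrd1, the CD94 chain that sees the H2-T23 product, was between 2.38 and 5.67 in the group means, and Cd8a between 0.907 and 3.45.

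The class II pathway, 10 genes, had 1 higher and 3 lower in WT and 1 of each in AcPbKO (medians -0.41 and -0.28). The shares of all genes were 13.2% higher and 12.2% lower in WT, and 14.1% and 13.3% in AcPbKO. H2-Aa fell from 96.7 to 46.5 normalized counts in WT (-1.07, adjusted p = 0.00463), H2-Eb1 from 84.7 to 50.4 (-0.74, 0.0260) and the invariant chain Cd74 from 246 to 154 (-0.70, 0.0189). Ciita, the class II transactivator, rose in both genotypes (0.44, 0.0360 and 0.76, 0.00333), and H2-DMa, the class II peptide editor, fell in AcPbKO (-0.47, 0.0165). With the Xist term the WT calls of Ciita (adjusted p = 0.114) and H2-Eb1 (0.0772) were lost, and the other 2 in WT and both in AcPbKO were kept. Of these class II and class I lists 0 genes passed in the genotype comparisons or in the difference of the SD effect (limma).

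Genes with the most similar profile over the 12 libraries were found for H2-T24 and H2-K1 among 12556 genes, by the root mean square difference of log2 values after each gene was centred on its mean. For H2-T24 they were Ccdc55 (0.0713), Adam8 (0.0803), Rps24 (0.0864), Dlx1as (0.0979) and Rin2 (0.0995). The H2-K1 profile was closest to those of Foxf2 (0.102), Gbp9 (0.106), Grap (0.119), Gabrd (0.122) and Igtp (0.129), 2 of which, Gbp9 and Igtp, are interferon-inducible GTPases. Within the 9 members other than H2-T22, the closest pairs were H2-K1 with H2-Q4 (0.145), H2-K1 with H2-D1 (0.159) and H2-D1 with Tapbp (0.166). H2-T24 was closest to B2m (0.247). All libraries share the depth gap between SD and control, so these distances are descriptions.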

How the data were processed

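Total RNA of somatosensory cortex was made into stranded mRNA libraries (TruSeq) and sequenced as paired-end reads. Reads were aligned to mm10 with HISAT2 2.2.1, as listed in the submitters' processing notes, which name featureCounts where the study's methods name HTSeq. Annotation and strand setting are not given in the sources used here. The values deposited by the authors are a signal, read counts divided by DESeq2 size factors, in 5 tables of 24421 genes, each with 6 libraries. The authors' own fold changes and p-values in these tables were not used. Reads were recovered by undoing the size factors: of 732630 values, 100.0% came out whole to within 0.01 and 0 differed between tables.

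SD-AcPbKO over CTL-WT was used for that check only. Pairwise tests used limma 3.58.1 (R 4.3.3) with a variance trend on log2(normalized count + 1) of the deposited values, over genes with at least 1 read, with Benjamini-Hochberg adjustment over all genes and a threshold of 0.05 (4 residual degrees of freedom). The averaged SD effect and its difference between genotypes used the 12 libraries normalized together (8 degrees of freedom), as did all levels printed. A fold change on this scale understates the change of low genes. The plan named edgeR for tables of raw counts and limma for normalized values, so limma applies here. Alternatives were edgeR 4.0.16 and DESeq2 1.42.0 on the recovered reads, TMM factors, a pseudocount of 10, a mean of at least 10, thinning to equal depth, all 4 groups in 1 fit, a term for or omission of the Xist libraries, a replicate block, and leaving out each library. The procedure was tested on simulated data. Groups were taken from the labels. RPKM used exon lengths of GENCODE M21, and figures used matplotlib 3.10.9 with Python 3.11.15.

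The members, gene lists and ratios were chosen with earlier results of these data known. Genes named are the 10 members, genes of the pathway lists past the threshold with a mean of at least 50, and the 5 most similar profiles among genes with a mean of at least 100. Other genes are named after their values were seen.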

Additional observations from a re-analysis of the deposited data

How the results depend on the processing

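With 3 libraries a group, single libraries decide several calls. In SD-WT over CTL-WT, 7 members passed, and 4 did with all 4 groups in 1 fit (24.3% of all genes), 4 with a term for the Xist libraries, 0 without these libraries, and 3 to 7 when 1 library was left out (13.3% to 30.7% of all genes). In SD-AcPbKO over CTL-AcPbKO, 4 passed, and 7 did with all 4 groups in 1 fit (30.9% of all genes, against 27.4%), 2 without the Xist libraries, and 2 to 6 when 1 library was left out (16.6% to 26.6% of all genes). Averaged over genotypes, 8 passed, and 4 did with the Xist term, 3 without the Xist libraries, and 7 to 9 when 1 library was left out (36.9% to 41.99% of all genes). Without the Xist libraries the fits hold 8 libraries and 1 control a genotype, and the lone control is taken to vary like the other groups. The controls left, CTL-WT replicate 01 and CTL-AcPbKO replicate 03, had the highest oligodendrocyte marker sums of their groups (140476 and 127531 normalized counts). CTL-WT replicate 01 also had the highest striatal neuron marker sum of all 12 libraries (18229). Whether this tissue content had a part in the shifts was not tested, nor was the cause of the other shifts. The genotype comparisons and the difference of the SD effect had 0 calls throughout.

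Of 1044 recomputed values of single members, 72 lost the call, 15 gained it and 952 stayed on their side of the threshold. Among the 952, 49 uncalled differences under 1 standard error changed sign, and 5 further values turned direction. With the Xist term, H2-D1 in WT was 0.0116 and H2-Q4 in WT 0.13. Without the Xist libraries, H2-T23 in AcPbKO was -0.0690, and the difference of the SD effect was 0.00861 for H2-D1 and 0.14 for H2-Q4. The cause was not tested.

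Replicate numbers do not pair the libraries: deviations of same-numbered SD and control libraries correlated at 0.10, -0.07, -0.14 and -0.02 over 16062 genes. With the replicate number as a block, 0 members and 0 of all genes passed in WT, in AcPbKO and in SD-AcPbKO over SD-WT, so these fits say nothing of the members, and 5 members and 37.0% of all genes passed averaged over genotypes. No paired analysis was possible for CTL-AcPbKO over CTL-WT because no residual degrees of freedom remained. For H2-T22, with 1 to 11 reads, depth leaves the direction open in all settings.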
